A study of Trichoderma reesei with 2 samples.

Results

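In hyphae of Trichoderma reesei strain HJ48, 172 of 9129 gene models were both abundant in the anaerobic-titled library and much scarcer in the aerobic-titled library. They were chosen from the deposited FPKM values (fragments per kilobase of gene model and scaled to a library total) by requiring 100 FPKM or more in the anaerobic-titled library and a ratio of (FPKM + 1) between the libraries of at least 8. Gene models of scaffold 7, of which 16 met both criteria, were left out by the rule. Gene models that reached 1 FPKM in either library are called compared gene models here. There are 8197 of them, 7794 of these off scaffold 7, and the 172 members are 2.21% of the latter. They are 22.0% of the 782 models off scaffold 7 that reached 100 FPKM in the anaerobic-titled library.

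The series compared RNA of cultures 4 days old during ethanol fermentation without and with oxygen, with 1 library per condition and the same strain in both. The title and the condition field of each library contradict each other: the anaerobic-titled library has a condition field naming aerobic fermentation, and the aerobic-titled library one naming anaerobic fermentation. The libraries are therefore called by their titles, and no direction is assigned to oxygen. If the condition fields are right, the members belong to the other condition. The design text speaks of 3 replicates, but the table holds 1 column per library, which may be 1 culture or a pool, as nothing says which. The sources used here give no medium, carbon source or growth protocol.

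T. reesei is a filamentous fungus best known for the cellulases it secretes into its medium. When oxygen is short, many fungi turn pyruvate from glycolysis into acetaldehyde and then ethanol, through pyruvate decarboxylase and alcohol dehydrogenase, which regenerates the NAD+ that glycolysis needs. In any fungal culture a small set of genes, such as those for ribosomal proteins, glycolytic enzymes, secreted enzymes and cell wall proteins, gives a large part of the messenger RNA. Which of the members belong to such groups is not known here, because the table names gene models by identifier only. None of the 172 identifiers (0 of 172) was found in the available table of 9116 RefSeq genes of strain QM6a. The same held for all gene models (0 of 9129), so the lack of a match says nothing about the members. No member is therefore given a gene name or a function, and no pathway list could be counted.

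The identifiers do carry the way a model was built, its scaffold and a number. By the naming used for this kind of genome annotation, fgenesh models come from a gene finder, gw1 and e_gw1 models from alignment to known proteins, and a model with the estExt prefix is one of these extended with expressed sequence tags, which are sequences of cDNA from earlier cultures. These names describe the model and not the gene's role.

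The members held a large part of one library and a small part of the other. Their FPKM added up to 33.5% of the summed FPKM of the anaerobic-titled library and 0.863% of that of the aerobic-titled library. In recovered reads, the shares were 36.8% and 1.19%. The level of a member had a median of 344 FPKM in the anaerobic-titled library, with quartiles of 194 and 1099 FPKM and a range of 101 to 44744 FPKM. In the aerobic-titled library, members had quartiles of 7.06 and 43.4 FPKM around a median of 18.5 FPKM, and a range of 0 to 821 FPKM. The 2 sets of values chose the members, so these differences are a description and were not tested. In a bulk culture, fewer cells that use a gene and less of its RNA per cell cannot be told apart.

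**Figure D1:**
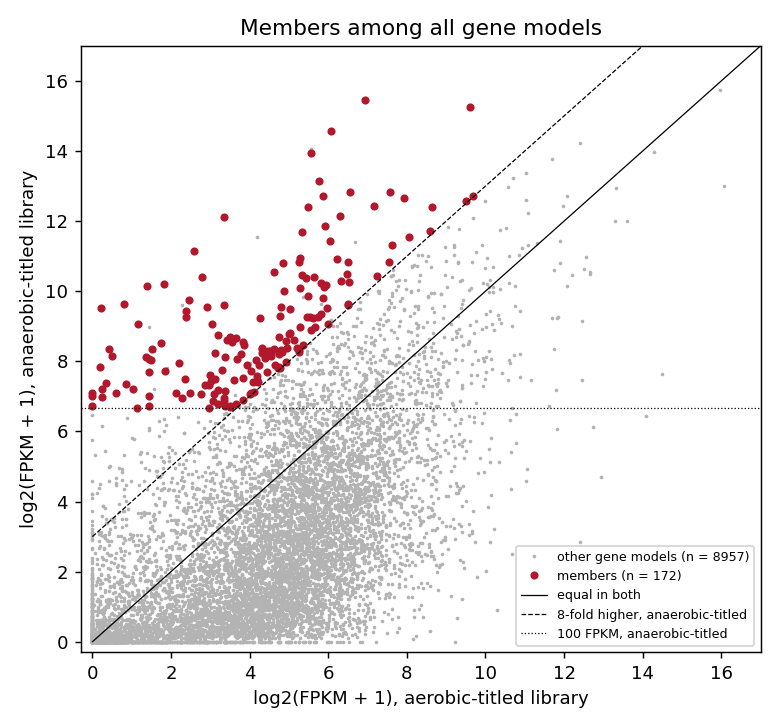
Level of each gene model as log2(FPKM + 1) in the aerobic-titled library (x axis) and the anaerobic-titled library (y axis), with the 172 members in red and the 8957 other gene models in grey. The dotted and dashed lines are the limits of the rule, and most grey points lie below the line of equal level, where the compared gene models had a median log2 ratio of -1.85.

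Most members were present in both libraries. In the aerobic-titled library, 159 of the 172 stood at 1 FPKM or more, 111 at 10 FPKM or more and 13 at 100 FPKM or more, and none reached 1000 FPKM. Most gene models of the table reached 1 FPKM there too, so this is not particular to the members. Among all 9129, a level of 1.03 FPKM ranked 7899 and one of 10.3 FPKM ranked 5948. Levels of 93.8 and 121 FPKM ranked 1569 and 1209. The median of all 9129 gene models was 22.5 FPKM in that library, and 76 members lay above it and 96 below. In the anaerobic-titled library, where the median of all gene models was 3.62 FPKM, every member lay above it by the rule. The members were thus spread around the middle of the aerobic-titled library and supplied 34 of the 100 most abundant gene models of the anaerobic-titled library, 22 of its top 50 and 4 of its top 10. None was among the 100 most abundant of the aerobic-titled library (0 of 100). The rule sets a lowest level in the anaerobic-titled library and caps the level in the other, so these positions follow in part from it.

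**Figure D2:**
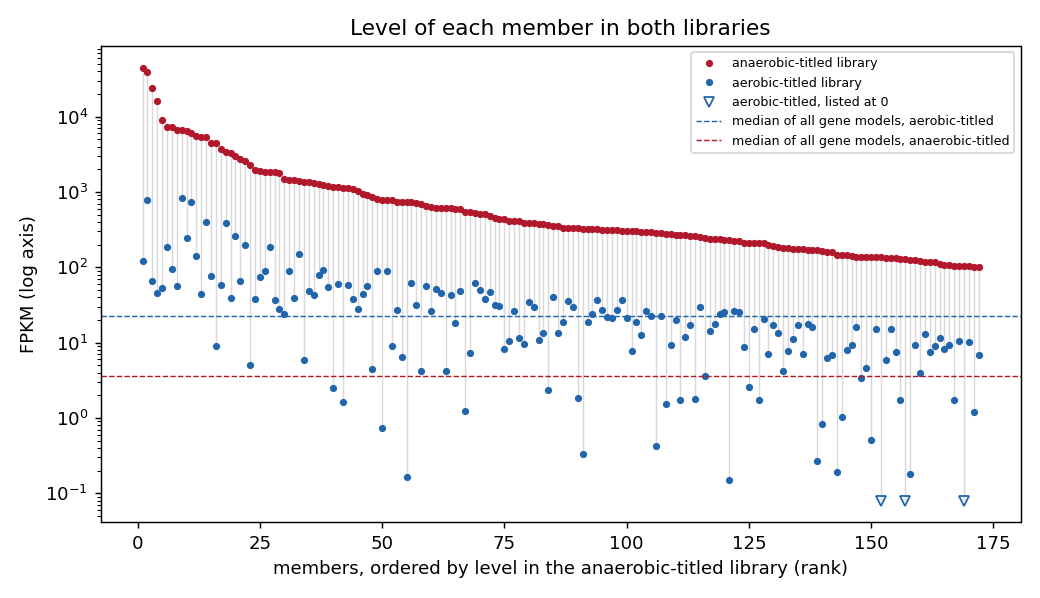
FPKM of each of the 172 members (log axis), ordered by level in the anaerobic-titled library, with red points for that library, blue points for the aerobic-titled library and triangles for the 3 members listed at 0 there. The dashed lines are the medians of all gene models, 3.62 FPKM in the anaerobic-titled library and 22.5 FPKM in the aerobic-titled library, and the blue points lie on both sides of the latter.

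A few members made up much of the sum. The 4 members above 10000 FPKM held 42.3% of the members' summed FPKM in the anaerobic-titled library, the 10 highest held 57.2%, and 62 members made up 90% of it. The highest, estExt_GeneWisePlus.C_10990 on scaffold 1, stood at 44744 FPKM in the anaerobic-titled library and 121 FPKM in the aerobic-titled library. It ranked 2 in the first library and 1209 in the other. The next, estExt_fgenesh5_pg.C_10997, also on scaffold 1, had 39213 and 784 FPKM. It kept a high level in the aerobic-titled library, where it ranked 136. The 16 members on scaffold 1, these 2 among them, held 34.1% of the members' summed FPKM in the anaerobic-titled library.

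The next pair of members by level was far from the top of the aerobic-titled library. The model fgenesh5_pg.C_scaffold_10000029 on scaffold 10 had 24165 FPKM in the anaerobic-titled library and 65.8 FPKM in the other. The model estExt_Genewise1.C_180149 on scaffold 18 had 15883 and 46.1 FPKM. Both values in the aerobic-titled library were above that library's median of 22.5 FPKM.

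The other members of the highest 10 lay between 6484 and 9032 FPKM in the anaerobic-titled library. The model e_gw1.19.77.1 had 9032 FPKM there and 53.8 FPKM in the aerobic-titled library. The model estExt_fgenesh1_pm.C_180019, on the same scaffold as estExt_Genewise1.C_180149, had 7317 and 188 FPKM. The model e_gw1.10.320.1 had 7259 and 93.8 FPKM. All 3 lay above the median of 22.5 FPKM in the aerobic-titled library and far below its most abundant models.

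Members of like level in the anaerobic-titled library could differ widely in the other. The models e_gw1.1.1802.1, e_gw1.4.296.1 and estExt_Genewise1.C_90603 had 6730, 6710 and 6484 FPKM in the anaerobic-titled library. In the aerobic-titled library they had 57.2, 821 and 242 FPKM in the same order. Of all members, e_gw1.4.296.1 was the highest in the aerobic-titled library, followed by estExt_fgenesh5_pg.C_10997 and by e_gw1.2.36.1, which had 731 FPKM there and 6149 FPKM in the anaerobic-titled library.

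The ratio between the libraries varied widely among the members. On the (FPKM + 1) scale its median over the members was 20.9-fold, with quartiles of 12.1 and 59.2. In log2 units the median was 4.38, set beside -1.85 over all 8197 compared gene models, scaffold 7 included. Of the members, 76 lay under 16-fold, 64 at 32-fold or more and 29 at 100-fold or more. Among all compared gene models 3.4% were at least 8-fold higher in the anaerobic-titled library, so a ratio of this size was uncommon, and by the rule every member has it.

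The median ratio was highest among the most abundant members. The 4 members above 10000 FPKM had a median ratio of 350-fold, and the 41 members between 1000 and 10000 FPKM one of 35.1-fold. The 57 members between 300 and 1000 FPKM had a median ratio of 15.4-fold, and the 70 between 100 and 300 FPKM one of 15.8-fold. The median level in the aerobic-titled library was 93.3, 59.0, 25.9 and 8.46 FPKM in these groups, in that order. The groups are cut on a value that enters the ratio.

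Counting error was small beside most of these ratios. The smallest whole reads that give the FPKM values were recovered, and they add up to 8082008 in the anaerobic-titled library and 7392335 in the aerobic-titled library. The true reads of a gene model can be a whole multiple of these, which would narrow its interval. A member had a median of 3388 reads in the anaerobic-titled library and 141 in the aerobic-titled library. For 156 of the 172 members, the ratio of plain FPKM was beyond 8-fold over its whole 95% exact counting interval, against 3.22% of all compared gene models, a contrast that the rule itself makes. For the other 16 the interval reached below 8-fold. The interval covers counting error only, and with 1 library per group there is no check on how much cultures of 1 condition differ.

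**Figure D3:**
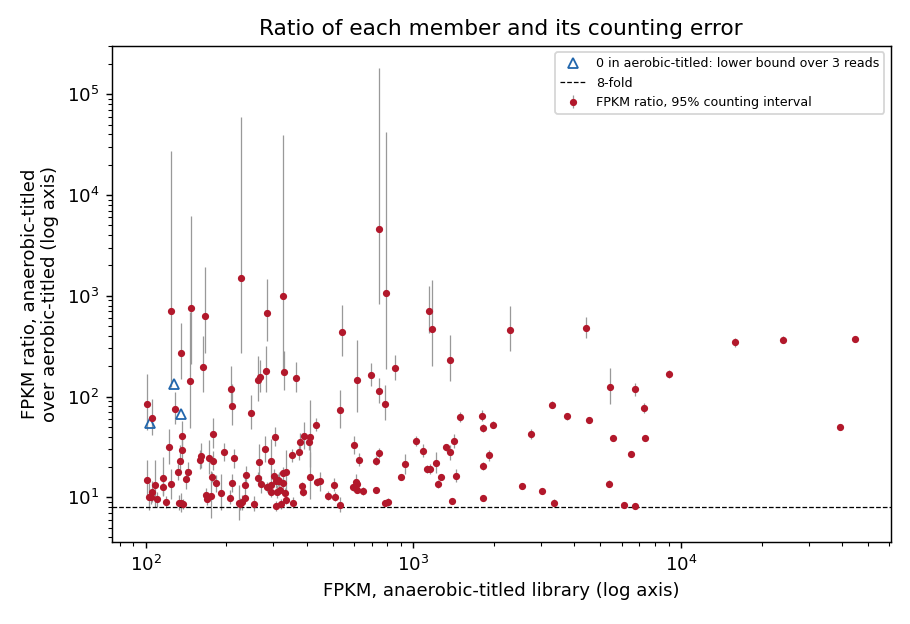
Plain FPKM ratio of each member, anaerobic-titled over aerobic-titled (log axis), against its FPKM in the anaerobic-titled library (log axis), with 95% exact counting intervals as grey bars and triangles for lower bounds of the 3 members at 0. Intervals are narrow at the right, where the 3 highest ratios above 10000 FPKM lie between 345 and 370, and wide where the aerobic-titled library had 1 to 3 reads.

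In plain FPKM, 33 members were at least 100-fold higher in the anaerobic-titled library, and 1 member listed at 0 had a lower bound beyond 100-fold. Over all compared gene models the share past this limit was 0.561%. The members estExt_GeneWisePlus.C_10990, fgenesh5_pg.C_scaffold_10000029 and estExt_Genewise1.C_180149 had ratios of 370 (counting interval 351 to 390), 368 (337 to 402) and 345 (312 to 382), which overlap. The member estExt_fgenesh5_pg.C_10997, between them by level, had a ratio of 49.99 (48.8 to 51.2), outside those intervals.

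Ratios above 300-fold with 10 or more reads in the aerobic-titled library were seen in 7 members. Besides the 3 just given, e_gw1.27.63.1 on scaffold 27 had 4408 FPKM in the anaerobic-titled library and 9.10 FPKM in the other, a ratio of 484 (384 to 620). The model estExt_fgenesh5_pg.C_210048 on scaffold 21 had 2290 and 5.01 FPKM, a ratio of 457 (281 to 800). On scaffold 22, estExt_GeneWisePlus.C_220025 had 1140 and 1.62 FPKM, a ratio of 705 (427 to 1261). The last interval lies above those of estExt_GeneWisePlus.C_10990, fgenesh5_pg.C_scaffold_10000029 and estExt_Genewise1.C_180149. The interval of estExt_fgenesh5_pg.C_210048 overlaps all 3, and that of e_gw1.27.63.1 overlaps all but the lowest of them. The remaining one, e_gw1.21.80.1, also on scaffold 21, had 540 and 1.25 FPKM and a ratio of 433 (253 to 814).

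The 2 highest ratios on the (FPKM + 1) scale rested on 1 read in the aerobic-titled library. The model fgenesh5_pg.C_scaffold_26000081 had 741 FPKM (5000 reads) in the anaerobic-titled library and 0.162 FPKM in the other, and fgenesh5_pg.C_scaffold_27000036 had 789 FPKM (1157 reads) and 0.746 FPKM. The counting intervals of their plain FPKM ratios, 4572 and 1058, started at 820-fold and 190-fold. On the plain scale fgenesh5_pg.C_scaffold_5000031, with 227 and 0.152 FPKM, lay between them at 1495-fold, with an interval starting at 268-fold and also 1 read in the aerobic-titled library. Over the 66 members with 5000 or more reads in the anaerobic-titled library, the aerobic-titled library held between 0.2 and 112 reads per 1000, with a median of 32.3.

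Few members were near absence in the aerobic-titled library. There, 13 members stood under 1 FPKM, and 3 of these were listed at 0. Such models were a minority of the whole table as well. Among all 9129 gene models, a level of 1.03 FPKM ranked 7899 in that library, and models at 0 shared rank 8711. The model fgenesh5_pg.C_scaffold_1000469 had 135 FPKM in the anaerobic-titled library, from 220 reads, and was at least 67.1-fold higher there when a count of 0 is set to a floor of 3 reads per library. For fgenesh5_pg.C_scaffold_2000362, with 127 FPKM, the bound was at least 134-fold higher. For fgenesh5_pg.C_scaffold_6000093, with 104 FPKM, it was at least 55.2-fold higher. The 95% exact counting interval, which allows slightly more than 3 reads, starts at 54.1, 109 and 44.4 for these 3 members, in that order. All 3 are unextended fgenesh5_pg models, as were 9 of the 13 under 1 FPKM, and the other 4 were gw1 or e_gw1 models. No extended model (0 of 60) was under 1 FPKM in the aerobic-titled library. The kinds of all gene models under 1 FPKM there were not counted, so this make-up may not be particular to the members. Among other models with a compared gene model at an adjacent number, 593 of the fgenesh5_pg kind had a median of 12.6 FPKM there. The 1483 such models of all kinds had one of 20.7 FPKM.

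Some gene models lay close to the limits of the rule. The lowest ratios inside it were 8.06 for fgenesh5_pg.C_scaffold_6000194, with 307 and 37.2 FPKM, and 8.07 for estExt_GeneWisePlus.C_280027, with 137 and 16.2 FPKM. The member with the next ratio, 8.16, was e_gw1.4.296.1. Just outside lay fgenesh1_pm.C_scaffold_13000036 at 7.99 and fgenesh5_pg.C_scaffold_4000220 at 7.84. By level, the lowest members were e_gw1.10.652.1 at 101.1 FPKM and fgenesh5_pg.C_scaffold_11000257 at 101.2 FPKM in the anaerobic-titled library. Below the limit, with a ratio beyond 8, came estExt_GeneWisePlus.C_110377 at 91.1 FPKM and fgenesh5_pg.C_scaffold_14000155 at 89.9 FPKM.

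The kind of gene model was not used by the rule. Taken over all levels, its make-up differed from that of other abundant models and was near that of all compared models. Of the 172 members, 60 were extended models, a share of 34.9% (95% exact interval 27.8 to 42.5). Among the 610 other gene models that reached 100 FPKM in the anaerobic-titled library the share was 59.5% (55.5 to 63.4). It was 58.3% (54.3 to 62.2) among the 609 gene models chosen by the same limits in the opposite direction. Over all 7794 compared gene models it was 39.4% (38.3 to 40.4), within the members' interval.

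The share of unextended models was higher than in the other abundant sets. Models of the fgenesh5_pg kind were 43 of the 172 members (exact interval 18.7 to 32.2%), against 11.0% (8.61 to 13.7) of the other abundant models and 13.1% (10.6 to 16.1) of the opposite set. Over all 7794 compared models the share was 22.0% (21.1 to 22.9), within the members' interval. Models of the gw1 and e_gw1 kinds were 59, or 34.3% (27.2 to 41.9), against 22.8% (19.5 to 26.3) and 21.8% (18.6 to 25.3). Over all compared models they were 32.4% (31.3 to 33.4), again within the members' interval. Taken over all levels, the members were thus closer in kind to the compared models than to the abundant sets. The fgenesh1_pm kind gave 9 members and the kg2 kind 1. These intervals treat gene models as independent, and no test was made, as gene models of 1 library are not replicates.

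**Figure D4:**
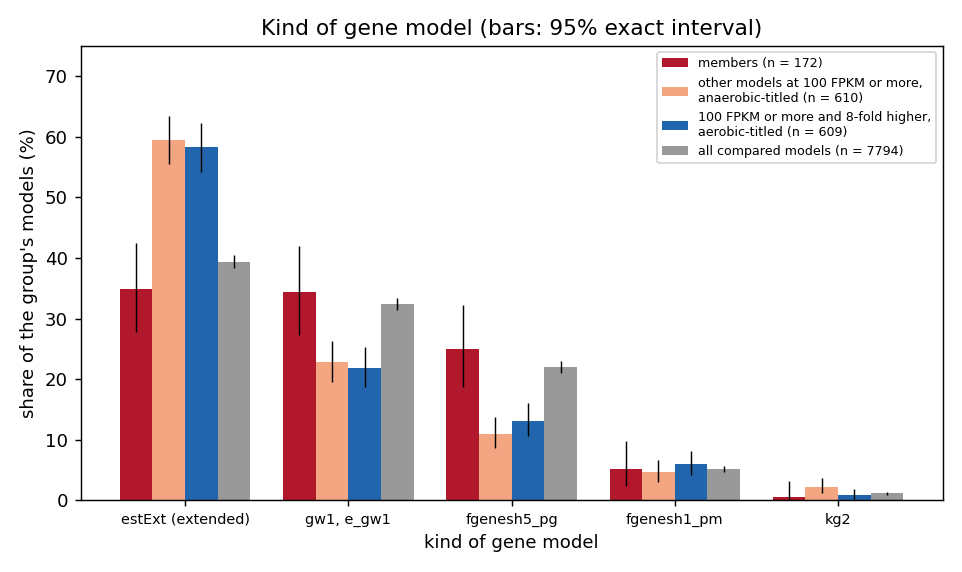
Share of each group's gene models (%) by kind of model, with 95% exact intervals, for the 172 members, the 610 other models at 100 FPKM or more in the anaerobic-titled library, the 609 models chosen in the opposite direction and all 7794 compared models. The members' share of extended models, 34.9%, stands below the 59.5% and 58.3% of the other abundant sets.

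At each level, a smaller share of the members than of the other abundant models was extended. Between 100 and 300 FPKM in the anaerobic-titled library, 14 of 70 members (exact interval 11.4 to 31.3%) were extended, against 208 of 369 other models (56.4%, 51.1 to 61.5). Between 300 and 1000 FPKM the shares were 23 of 57 (40.4%, 27.6 to 54.2) and 103 of 157 (65.6%, 57.6 to 73.0). At 1000 FPKM or more they were 23 of 45 (51.1%, 35.8 to 66.3) and 52 of 84 (61.9%, 50.7 to 72.3), where the intervals overlap. Whether the gap differs between these levels was not tested. Of all 7794 compared models 39.4% were extended, above the members' interval between 100 and 300 FPKM and within it at the higher levels. The fgenesh5_pg kind gave 37.1% (25.9 to 49.5) of the members between 100 and 300 FPKM. It gave 22.8% (12.7 to 35.8) of those between 300 and 1000 FPKM and 8.89% (2.48 to 21.2) of those at 1000 FPKM or more. Over all compared models, which were not split by level, it was 22.0%.

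The kinds also differed in level within the set. Extended members had medians of 524 FPKM in the anaerobic-titled library and 29.4 FPKM in the other, and held 56.8% of the members' summed FPKM. The fgenesh5_pg members had medians of 227 and 9.70 FPKM and held 14.4%. The gw1 and e_gw1 members lay between, at 410 and 20.1 FPKM, with 27.3% of the sum. The median ratio was 16.3-fold for extended, 31.6-fold for fgenesh5_pg and 20.8-fold for gw1 and e_gw1 members. Levels and ratios by kind over all compared models were not computed, so these differences may not be particular to the members. Among other models with a compared neighbour, the fgenesh5_pg kind was also lower in the aerobic-titled library. Its median there was 12.6 FPKM, against 20.7 FPKM for all kinds.

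Recovered lengths of the members were close to those of other abundant models as a whole. Within the fgenesh5_pg kind they were longer than those of the other abundant models. Their median was 1041 bp (interval 951 to 1146), against 1015.5 bp (943 to 1073) for the 610 other abundant models. It was 750 bp (699 to 806) for the 609 models chosen in the opposite direction, below the members' interval, and 1104 bp (1080 to 1125) for all compared models. Within the fgenesh5_pg kind it was 960 bp (774 to 1122, n = 43) for members and 543 bp (405 to 657, n = 67) for the others. Over all compared models of that kind it was 816 bp (783 to 855). Within the gw1 and e_gw1 kinds the medians were 822 bp (591 to 1029) for members and 546 bp (447 to 681) for the others. Extended members had 1405.5 bp (1195 to 1634) against 1203 bp (1135 to 1283). The intervals of members and other abundant models overlap in these last kinds and do not in the fgenesh5_pg kind. Over all compared models the medians were 975 bp (945 to 1008) for gw1 and e_gw1 and 1389 bp (1360 to 1436) for extended models. In each of these kinds, fgenesh5_pg included, the median of all compared models lay within the members' interval. A recovered length is the smallest that yields whole reads and can fall short of the true one by a whole factor, so lengths of single members are not given.

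The members were spread over 31 of the 52 scaffolds with a compared gene model. Among the 27 scaffolds with 100 or more compared models, 24 held a member, and the share of members ranged from 0 to 6.42% with a median of 2.39%. Scaffold 28 had the highest share, 7 of 109 (interval 2.62 to 12.8%), followed by scaffold 27 with 8 of 128, or 6.25% (2.74 to 11.9%). On scaffolds 15, 17 and 25 none of 165, 199 and 112 compared models was a member. Of these, 4, 13 and 12 reached 100 FPKM in the anaerobic-titled library. On scaffolds 28 and 27, 18 and 16 models reached it. On scaffold 29, with 92 compared models, 13 reached it and 7 were members. On scaffold 16, 22 reached it and 1 was a member. Whether the number of abundant models accounts for the differences between scaffolds was not tested. The values of these scaffolds were known when they were picked out. Scaffold 1 held the most members, 16, or 1.73% of its 925 compared models.

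Some members carried adjacent model numbers, on the assumption that the number follows the order on the scaffold. Within 1 kind and scaffold, 38 members had a compared gene model at an adjacent number, and for 6 of them it was also a member. All 6 were fgenesh5_pg models, a kind in which 16 members had such an adjacent model. Members were 2.21% of all compared models off scaffold 7. Their share among models adjacent to any compared model was not counted. The models fgenesh5_pg.C_scaffold_27000036 and fgenesh5_pg.C_scaffold_27000037 had 789 and 696 FPKM in the anaerobic-titled library, and 0.746 and 4.24 FPKM in the other. The models fgenesh5_pg.C_scaffold_2000201 and fgenesh5_pg.C_scaffold_2000202 had 335 and 411 FPKM, and 18.9 and 10.4 FPKM. In the third run, fgenesh5_pg.C_scaffold_6000093 was at 104 and 0 FPKM and fgenesh5_pg.C_scaffold_6000094 at 1027 and 28.3 FPKM. In the anaerobic-titled library, the runs thus joined members of like level on scaffolds 2 and 27 and of unlike level on scaffold 6. In the aerobic-titled library the pair on scaffold 27 was less alike, with 1 and 58 reads.

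Some gene models next to a member were themselves outside the set, because their own values did not meet the rule. For the fgenesh5_pg kind there were 11 such neighbours, with a median log2 ratio of 1.10 and a range of -5.36 to 6.47. Of these, 6 were at least 2-fold higher in the anaerobic-titled library and 2 at least 2-fold lower, where 13.0% of all compared gene models were at least 2-fold higher. The 593 other models of that kind with a compared neighbour had a median of -1.51, with quartiles of -2.72 and -0.074, and 14.0% of them were at least 2-fold higher. Over all kinds the 34 neighbours had a median of -0.71 and 10 were at least 2-fold higher, against a median of -1.71 for 1483 others. Being outside the set limits how high such a neighbour can be.

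**Figure D5:**
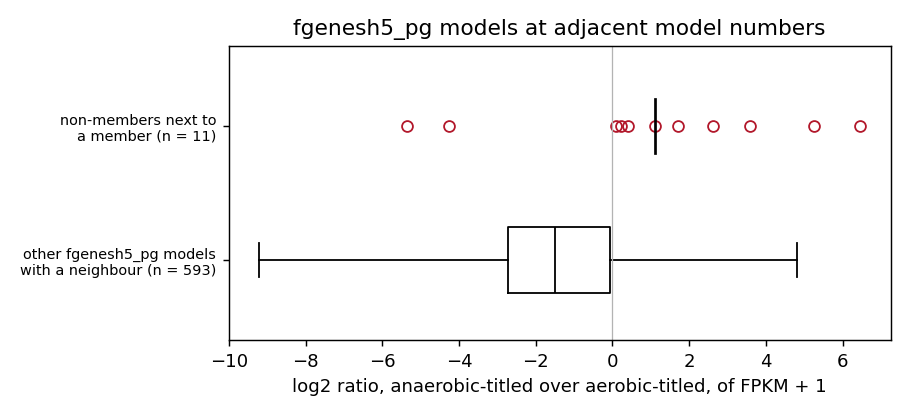
Log2 ratio of (FPKM + 1), anaerobic-titled over aerobic-titled, for the 11 fgenesh5_pg models next to a member (circles, median as a bar) and for the 593 other fgenesh5_pg models with a compared neighbour (box, median and quartiles, whiskers to the lowest and highest). Of the 11 circles, 9 lie above 0, and the others' upper quartile is at -0.074.

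The 2 neighbours with the highest ratios, named after their values were seen, both lay on scaffold 5. The model fgenesh5_pg.C_scaffold_5000032, next to a member, had 87.4 FPKM in the anaerobic-titled library and was listed at 0 in the other. The model fgenesh5_pg.C_scaffold_5000242, next to another member, had 39.0 and 0.0497 FPKM. The members beside them, fgenesh5_pg.C_scaffold_5000031 and fgenesh5_pg.C_scaffold_5000243, had 227 and 167 FPKM in the anaerobic-titled library and 0.152 and 0.267 FPKM in the aerobic-titled library. At the low end, fgenesh5_pg.C_scaffold_6000092, beside fgenesh5_pg.C_scaffold_6000093, had 2.40 FPKM in the anaerobic-titled library and 138 FPKM in the aerobic-titled library. Whether neighbouring models overlap or share reads is not known from the table, and its part in these values was not tested.

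How many gene models meet the rule depends on the scaling between the libraries. With TMM scaling, a trimmed mean of read ratios that centres typical gene models, every log2 ratio of FPKM was raised by 1.90. Then 416 gene models off scaffold 7 met the rule and 85 met it in the opposite direction, against 172 and 609 as deposited. All 172 members were among the 416, as a shift in their favour requires.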

How the data were processed

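Per the labels' protocols, Trizol was used for RNA extraction and a NEBNext Ultra kit for the libraries. Per the submitters' processing notes, Bowtie2 2.2.3, TopHat2 2.0.12 and HTSeq 0.6.1 were used. Not given in the sources used here are the genome build, annotation, strandedness and filters. The authors deposited an FPKM value for each of 9129 gene models in each library, used here unchanged.

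Whole reads were recovered from the FPKM values. Divisors between 1000000 and 40000000 were searched for those giving whole lengths (within 4e-05 bp) to 200 low gene models. The chosen ones, 8887469 for the anaerobic-titled library and 8126938 for the aerobic-titled library, gave whole lengths for 75% of them, against 61% for the next solution, which is 3 times as large. The smallest whole reads and length were found for all 8910 gene models above 0, and add up to 90.9% and 91.0% of the divisors. The procedure was tested on simulated data.

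Ratios are anaerobic-titled over aerobic-titled with 1 FPKM added to both values. Intervals are 95% exact (Clopper-Pearson) for ratios and shares and by order statistics for medians. Those of ratios cover counting error alone, as there is 1 library per group. Without molecular identifiers the reads are not independent molecules, so these intervals may be too narrow. Those of shares and medians treat gene models as independent and hold no counting error of reads. A count of 0 was set to a limit of 3 reads. With 1 library per group no test between the conditions was made. Models named are the 10 highest, the 5 highest and 3 lowest ratios, the 3 highest in the aerobic-titled library, those at 0, those nearest each limit and the 3 longest runs. A few others are named beside a count. The members, the naming rule and the comparisons were chosen with earlier results of these data known. Alternatives changed the pseudocount, scaling, limits and neighbour distance. Python 3.11.15, NumPy 2.4.6, SciPy 1.17.1 and pandas 2.3.3 were used.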

Additional observations from a re-analysis of the deposited data

How the results depend on the processing

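Of 29 values under alternatives for the count, ratio, share, kind, length and neighbours of the members, 19 stayed within 1.5 times the reported count or, for a median or a share of kinds, within the interval of the reported value. The other 10 did not, among them the 2 values of the share of summed FPKM, which has no interval and was counted as changed on any difference above 0.1 percentage points. TMM scaling gave 416 gene models meeting the rule, a median log2 ratio of 5.97 for the 172 members and 29 members under 1 FPKM in the aerobic-titled library, against 172, 4.38 and 13 as reported. Scaling by the median ratio of gene models that reached 10 FPKM in both libraries gave a median log2 ratio of 5.05. A minimum ratio of 4 gave 297 gene models and one of 16 gave 96. The members' share of the summed FPKM, 33.5% as reported, was 24.4% without the 20 highest gene models and 36.7% with scaffold 7 kept. The number of members with a member at a neighbouring number, 6 as reported, was 10 at a distance of up to 3 and 10 with a minimum ratio of 4. These changes follow from the construction of each alternative. No direction was reversed, which the choice of members by ratio makes hard to avoid. No paired analysis was possible because there is 1 library in each group, which also leaves no replicate to omit. Depth limits the ratio of the 15 members with under 10 reads in the aerobic-titled library.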
